A study of Notamacropus eugenii with 7 samples.

Results

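MiRNA in milk and in blood serum of lactating tammar wallabies was compared at day 120 of lactation. This day lies in phase 2B, the middle of lactation, when the pouch young can let go of the teat. The members are all known miRNAs listed in the milk library or in the serum library of this day, 75 of the 102 that were listed in any of the 7 libraries of the series. Milk listed 58 of them and serum 74, and 57 were listed in both. The series holds 5 milk libraries, of days 35, 75, 120, 175 and 250, and 2 serum libraries, of days 120 and 175, and both fluids of day 120 came from lactating mothers without an experimental treatment, which were anaesthetised and given oxytocin to let down the milk. The day is that of the sample labels, and the text of the study gives a slightly earlier one. The milk of several females was pooled and freed of fat and cells before RNA isolation, so the milk library stands for a mixture of animals. The methods give fewer females for serum and do not say whether their serum was pooled, and the text of the study states that milk and serum of this day shared their source females. Each fluid has 1 library at this day, there is no replicate error, and no test was made. The comparison addresses whether the miRNA in milk resembles what circulates in the mother.

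MicroRNAs are short RNAs that guide the silencing of messenger RNAs, mainly through the seed near their 5′ end, so that members of a family with the same seed share many targets. Cells release them into body fluids inside vesicles such as exosomes, in fat globules or bound to proteins, where they are protected from degradation. Mammary epithelial cells secrete milk, whereas the miRNA of serum comes mostly from blood cells, the vessel wall and organs such as the liver. A larger share of a miRNA in a fluid can come from more cells of a type or from more release per cell, which cannot be told apart here.

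For 5 members the study designed primers for quantitative PCR. They are shown because, on the deposited scale, 4 of these miRNAs took a larger share of milk than of serum and 1, miR-92, took like shares. With miR-10b left out of the denominators, miR-22 turned toward serum and miR-92 was 3.29-fold higher in serum. In the forward primers below, written 5′ to 3′, the 3′ part copies the 5′ part of the miRNA behind a short tail, and nothing is capitalised. The last 6 bases of the reverse transcription primer pair with the 3′ end of the miRNA, which is given in capitals after the primer.

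miR-148: ccgggctcagtgcactacag with the 3′ end CTTTGT.
miR-141: cgcgcctaacactgtctggta with the 3′ end AGATGC.
miR-30a: ggcgcgtgtaaacatcctcga with the 3′ end TGGAAG.
miR-22: ccaggcaagctgccagttg with the 3′ end AACTGC.
miR-92: gcgcttattgcacttgtcccg with the 3′ end GGCCTG.

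The first 4 took 8.32%, 0.684%, 3.36% and 1.14% of the milk miRNA reads and 0.200%, 0.002%, 0.366% and 0.474% of the serum miRNA reads. MiR-92, a product of the miR-17 to miR-92 cluster that is known for promoting cell proliferation, took 2.50% in milk and 2.63% in serum.

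The deposited values are the percent of annotated miRNA reads of a library, rounded to 3 decimals, so a deposited share is exact to 0.0005 percentage points either way. Larger shares are rounded further in the text. A miRNA without an entry was absent from that library, and an entry of 0 stands for a share that rounded to nothing. The deposited values hold no read numbers, and no counting interval was computed for a share. By the read totals that the study states, the serum library held several times more miRNA reads than the milk library. The listed shares summed to 99.4% in milk and 99.1% in serum, which leaves 0.578% and 0.866% outside the listed miRNAs. RNA was isolated with different kits from milk and serum according to the methods of the study, so that fluid and kit cannot be told apart.

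Both fluids were dominated by few miRNAs, and serum more so. MiR-191, which is abundant in many epithelial and blood cells, took 43.8% of the milk library, and miR-10b, which lies in a HOX gene cluster, took 69.2% of the serum library. The 2 most abundant miRNAs took 52.4% in milk and 76.4% in serum, the 5 most abundant 74.3% and 87.9%, and the 10 most abundant 91.2% and 94.6%. The effective number of miRNAs, the number of equally abundant ones that would give the same Shannon diversity, was 8.652 in milk and 4.004 in serum. At least 1% was reached by 12 miRNAs in milk and by 10 in serum. Between 0.001% and 0.01% lay 14 miRNAs in milk and 27 in serum. Serum thus listed more miRNAs and held more of them at the lower end, and it was also the library with more miRNA reads. The part of depth in these counts was not tested.

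**Figure D1:**
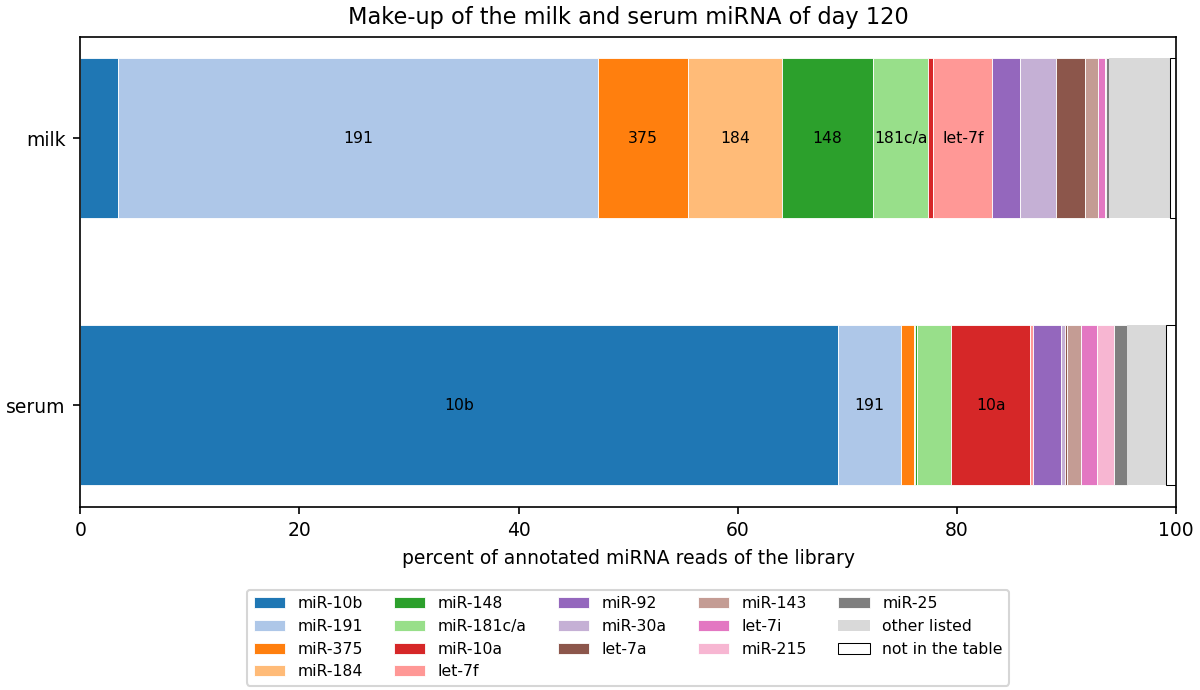
Share of annotated miRNA reads, in percent, of the 15 miRNAs that were among the 10 most abundant of either fluid at day 120, 1 library per bar. MiR-191 takes 43.8% of the milk bar and miR-10b 69.2% of the serum bar.

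The lists of the 10 most abundant miRNAs had 5 in common, namely miR-191, miR-375, miR-10b, miR-92 and the entry that joins miR-181c with miR-181a. The serum list took 65.6% of the milk library, mostly as miR-191, and the milk list took 82.9% of the serum library, mostly as miR-10b. The largest part of each library thus lay in miRNAs that the other fluid also held in quantity, at other proportions. To turn the proportions of one library into those of the other, 78.2% of the reads would have to change their miRNA. Across the 75 miRNAs, the Spearman correlation of milk and serum was 0.70 and the Pearson correlation of the percentages 0.13. The latter was 0.56 without miR-10b and 0.20 without miR-10b and miR-191. These correlations run across miRNAs of 1 library each and carry no p-value.

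Differences were taken as log2 of milk percent plus 0.001 minus log2 of serum percent plus 0.001, and they were compared among the 60 members that reached 0.005% in the higher fluid. A difference of 2, which is 4-fold, was reached by 15 miRNAs toward milk, 25.0% of those compared, and by 16 toward serum, 26.7%. The median difference was -0.13, and the range went from -4.34 for miR-10b to 10.26 for miR-184. The 15 miRNAs higher in milk took 83.1% of the milk library and 8.03% of the serum library. The 16 higher in serum took 79.6% of serum and 4.28% of milk, and the 29 within 4-fold took 12.1% of milk and 11.5% of serum. Just inside the limit were miR-103 with 2.27 and miR-25 with -2.36, and just outside were let-7b with 1.63 and miR-223 with -1.78.

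**Figure D2:**
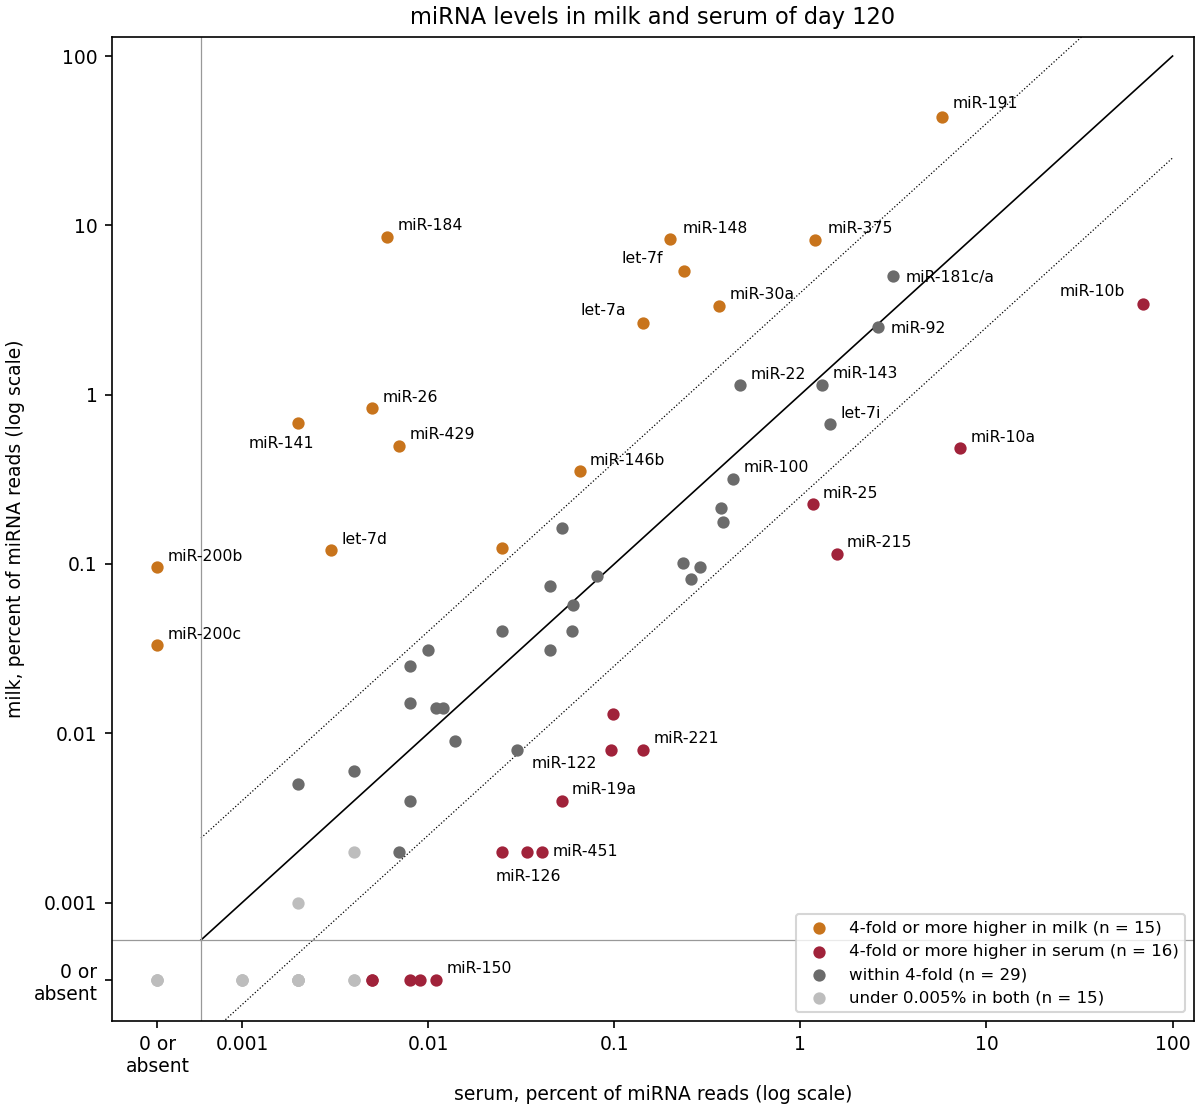
Percent of miRNA reads in milk against serum of day 120 for the 75 listed miRNAs, both on log scales, with entries of 0 or absent in the margin, where points overlap. The solid line marks equal shares and the dotted lines 4-fold differences. Of the 60 miRNAs that reached the minimum, 15 were 4-fold or more higher in milk and 16 in serum.

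Some of the 60 miRNAs passed the minimum through 1 fluid alone, 6 through milk and 11 through serum, and such a miRNA had to differ. Among the 43 with at least 0.005% in both fluids, 11 were 4-fold or more higher in milk, 7 in serum, and 25 lay within 4-fold. As shares add up to the whole, the size of miR-10b in serum lowers the share of every other serum miRNA. With miR-10b left out of both denominators, the median difference fell by 1.63 on the log2 scale, toward serum, and 10 miRNAs were then 4-fold or more higher in milk and 28 in serum. Every milk to serum ratio below, other than that of miR-10b, then moves toward serum by the same factor of 3.13, which is wider than the ranges given for rounding. MiR-191, miR-375, miR-30a, miR-146b and miR-103 then came within 4-fold. Ratios of 2 miRNAs within a library do not depend on it.

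No replicate gives the spread of a library, and the step from day 120 to day 175 within a fluid, which holds day, females and library together, was set beside the difference between fluids. Over the 60 miRNAs the median absolute difference between milk and serum was 2.32 on the log2 scale, against 1.47 between the days in milk and 0.70 between the days in serum. The difference between fluids was larger than either step of the same miRNA for 34 of the 60. The minimum was set on milk and serum of day 120. Of the 60, 6 passed it through milk alone and 11 through serum alone, and these had to differ between fluids. No such rule was set on the steps between days, so the medians and the 34 lean toward a larger difference between fluids. A miRNA picked for a large difference between fluids is also more likely to exceed its steps. Nothing is thus read from the count among those 4-fold or more apart. Of these, miR-19a, miR-19b, miR-27a and miR-451 did not exceed their steps, and their milk shares were all higher at day 175.

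**Figure D3:**
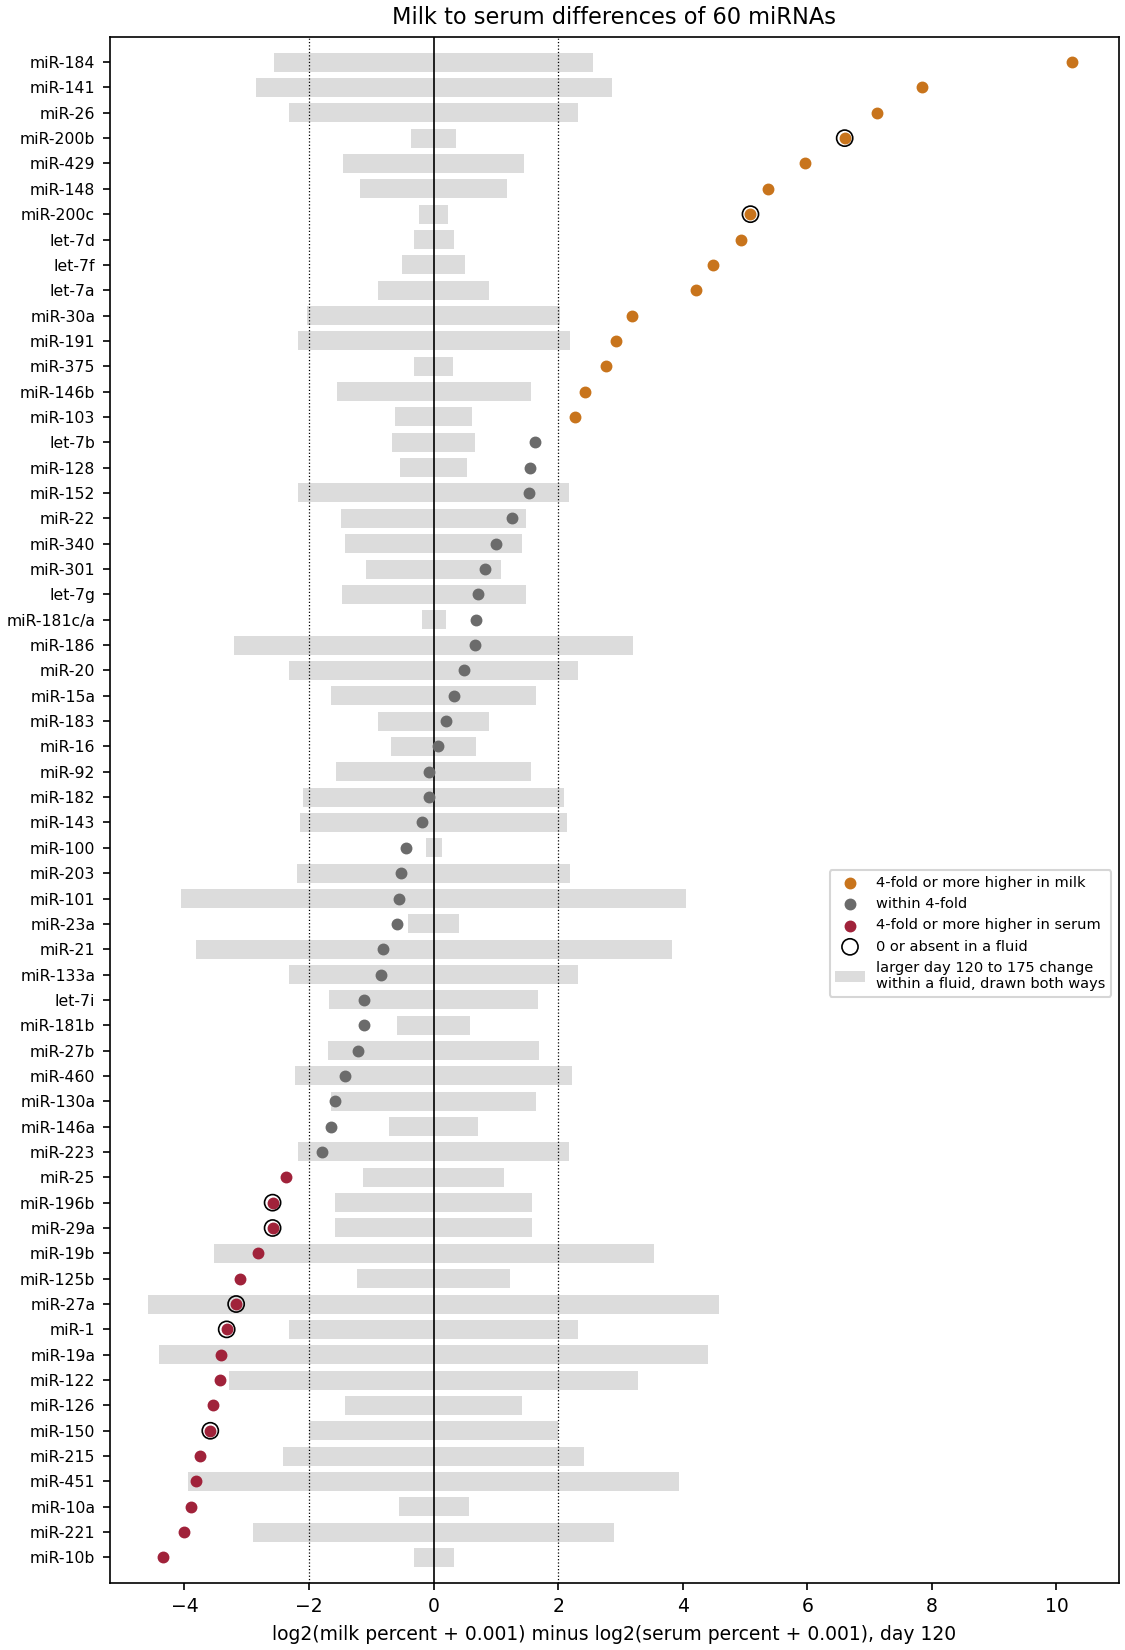
Log2 milk to serum difference at day 120 of the 60 miRNAs compared (points), beside the larger of their changes from day 120 to day 175 within milk or within serum (grey bars, drawn in both directions). The points of 34 of the 60 lie outside their grey bars, and those of miR-19a, miR-19b, miR-27a and miR-451 lie inside them.

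Among the miRNAs higher in milk, miR-184 had the largest difference and, after miR-191, the largest share. MiR-184, known for its part in the development of the nervous system and of the eye, took 8.56% of milk at rank 2 and 0.006% of serum at rank 51. Rounding leaves its milk to serum ratio of 1427 between 1317 and 1557, and it was 456 with miR-10b left out. MiR-148, which is abundant in milk of many mammals and targets the DNA methyltransferase DNMT1 among others, took 8.32% of milk at rank 3 and 0.200% of serum at rank 20. Its milk share was 41.6-fold higher, and 13.3-fold with miR-10b left out of the denominators. In serum miR-148 lay below all 5 milk libraries, which ranged from 5.37% to 14.6%, with 0.088% in the serum of day 175.

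MiR-191 took 43.8% of milk and 5.77% of serum, at ranks 1 and 3. Its 7.60-fold higher share in milk became 2.43-fold with miR-10b left out. At day 175 it took 9.66% of milk and 14.5% of serum, the opposite order of the fluids. MiR-375, known from pancreatic islets and gut epithelium, took 8.23% of milk and 1.20% of serum, a 6.84-fold difference that became 2.18-fold without miR-10b. MiR-30a, of a family expressed in many epithelia, was 9.17-fold higher in milk with 3.36% against 0.366%. MiR-30a came to 2.93-fold without miR-10b. In both miRNAs the serum of day 120 lay below all 5 milk libraries, the lowest of which held 2.41% for miR-375 and 1.095% for miR-30a.

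MiR-26, which is expressed in most tissues, showed one of the steepest contrasts at a moderate level. It took 0.836% of milk at rank 13 and 0.005% of serum at rank 52, a ratio of 167 that rounding leaves between 152 and 186, and of 53.4 with miR-10b left out. The 5 milk libraries ranged from 0.306% to 1.45%, and serum of day 175 held 0.029%. MiR-103, with 0.124% against 0.025%, and miR-146b, with 0.355% against 0.065%, were 4.96-fold and 5.46-fold higher in milk. For these 2 miRNAs the serum value of day 120 fell inside the range of the 5 milk libraries.

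**Figure D4:**
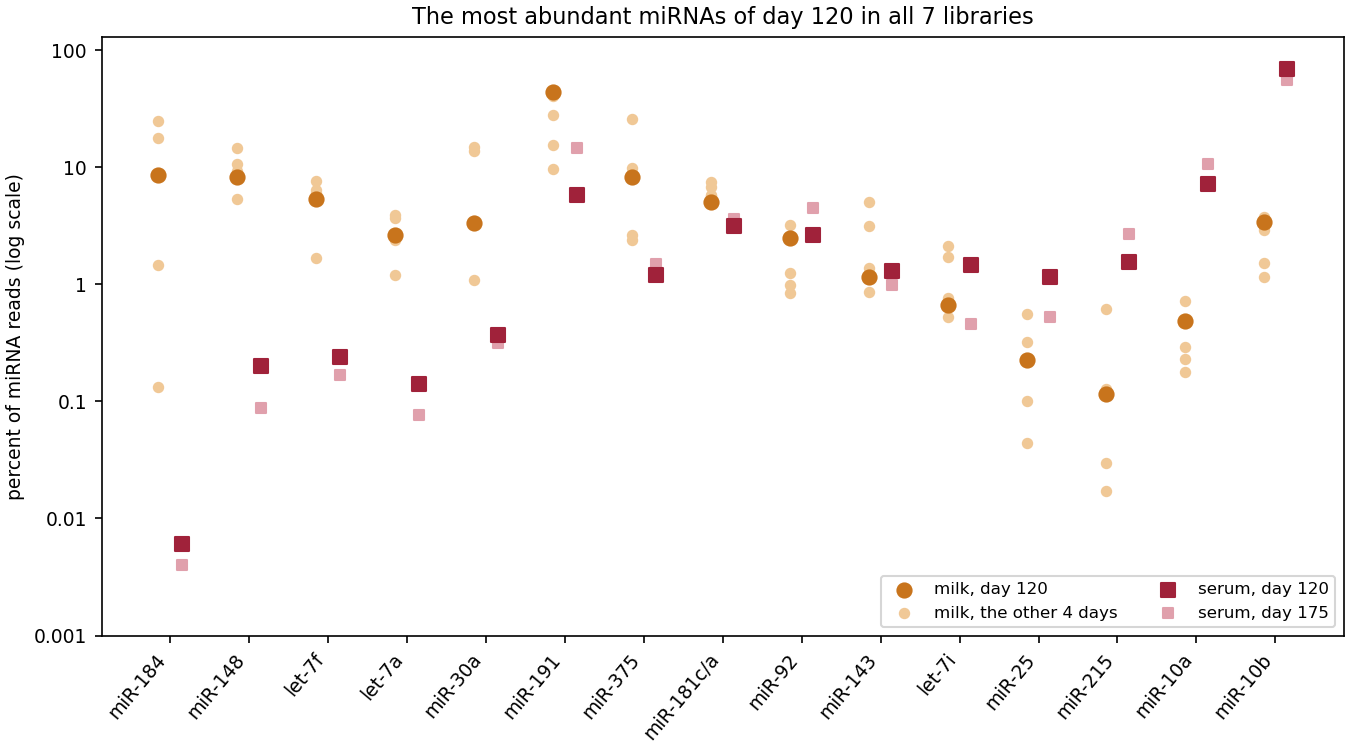
Percent of miRNA reads, on a log scale, of the 15 miRNAs among the 10 most abundant of either fluid at day 120, in the 5 milk and 2 serum libraries, ordered by their milk to serum difference. The serum value of day 120 lies below all milk values from miR-184 to the joint miR-181 entry, and above all for miR-25, miR-215, miR-10a and miR-10b.

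Across the 60 miRNAs, the serum value of day 120 lay below all 5 milk libraries for 17, above all 5 for 15 and inside their range for 28. It lay below for 11 of the 15 miRNAs higher in milk at day 120, and above for 11 of the 16 higher in serum, which were picked by 1 of these milk libraries and this serum library. MiR-200b and miR-200c were among the 4 exceptions in milk, since the milk library of day 35 held them at 0 or lacked them.

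The miR-200 family and miR-141, which maintain the epithelial state by repressing ZEB1 and ZEB2, were all higher in milk. MiR-141 took 0.684% of milk and 0.002% of serum, a ratio of 342 that rounding leaves between 273 and 456, and of 109 with miR-10b left out. MiR-429 took 0.500% of milk and 0.007% of serum, a ratio of 71.4 that rounding leaves between 66.6 and 77.0. MiR-200b and miR-200c took 0.096% and 0.033% of milk and were listed at 0 in serum. These 4 miRNAs come from a pair of genomic clusters in mammals, miR-200b with miR-429 and miR-141 with miR-200c, and together the clusters took 0.596% and 0.717% of milk against 0.007% and 0.002% of serum.

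Of the 10 miRNAs listed as epithelial markers, 9 were listed in a fluid and 8 reached 0.005%. Of these, 5 were 4-fold or more higher in milk, namely miR-375 and the 4 of the miR-200 clusters, beside 25.0% of all 60, and miR-141, miR-200b and miR-200c passed the minimum through milk alone. The other 3 were within 4-fold on the deposited scale, and miR-203 was over 4-fold higher in serum with miR-10b left out. MiR-182 took 0.057% of milk and 0.060% of serum, miR-183 took 0.014% and 0.012% and turned toward serum with miR-10b left out, and miR-203, known from the epidermis, took 0.031% and 0.045%. MiR-96, the third member of the cluster of miR-182 and miR-183, was listed in serum alone at 0.002%, and miR-205a was listed in neither fluid. The epithelial list thus did not move as 1 group.

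Members of the let-7 family, which favour differentiation and limit proliferation, lay on both sides, and the range of their log2 differences was 6.04, with 6 members against at most 3 in the other families listed. Over its 15 pairs the median gap was 2.86, below the 4.08 between both miR-146 members and the 3.84 between miR-148 and miR-152. Let-7f took 5.37% of milk and 0.238% of serum, let-7a 2.64% and 0.142%, and let-7d 0.121% and 0.003%. These 3 were 22.6-fold, 18.6-fold and 40.3-fold higher in milk, the last between 34.4 and 48.6 with rounding, and 7.20-fold, 5.94-fold and 12.9-fold with miR-10b left out. Let-7b, with 0.163% and 0.052%, and let-7g, with 0.074% and 0.045%, were higher in milk by 3.13-fold and 1.64-fold. The direction of let-7g turned with miR-10b left out, and let-7b was then level between the fluids. Let-7i was the exception, with 0.670% of milk and 1.45% of serum, 2.16-fold higher in serum and over 4-fold with miR-10b left out.

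The family as a whole took 9.04% of milk and 1.93% of serum, and let-7i alone made up most of the serum part. Within a library, let-7f was 8.02-fold above let-7i in milk and let-7i was 6.09-fold above let-7f in serum. In the other milk libraries let-7f was between 2.85-fold and 8.51-fold above let-7i, and in the serum of day 175 let-7i was 2.70-fold above let-7f. The order of these 2 family members was thus opposite in all milk and both serum libraries. Let-7 members differ by few bases, and reads could have been split between them by the counting.

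**Figure D5:**
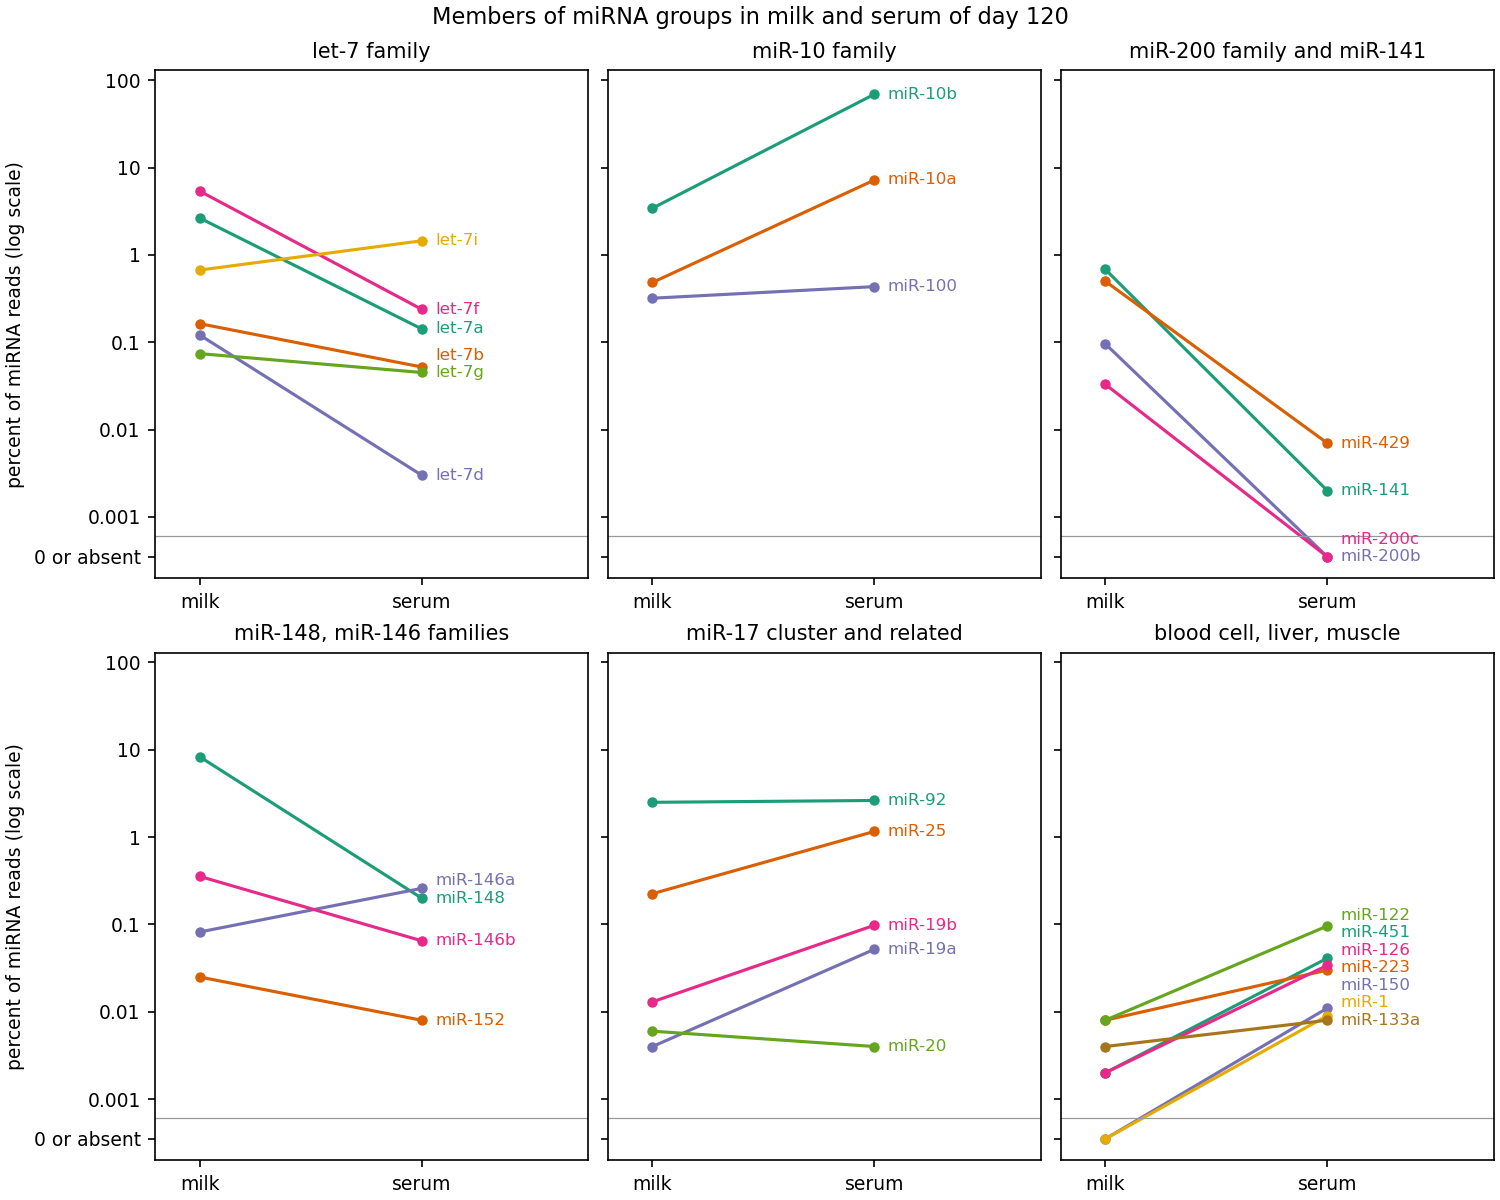
Percent of miRNA reads, on a log scale, in milk and serum of day 120 (1 library each) for members of 6 groups, with lines joining the 2 values of a miRNA. Let-7i is 2.16-fold higher in serum while let-7f is 22.6-fold higher in milk, and the miR-200 clusters slope toward milk while the blood cell, liver and muscle miRNAs slope toward serum.

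Serum was led by miR-10b and miR-10a, which are encoded in the HOX clusters and expressed along the body axis. MiR-10b took 69.2% of serum and 3.42% of milk, a 20.2-fold difference, and miR-10a took 7.20% of serum and 0.483% of milk, a 14.9-fold difference. Both were above all 5 milk libraries, which reached 3.76% for miR-10b and 0.714% for miR-10a. MiR-10b was the most abundant miRNA of serum and still ranked 7 in milk. MiR-100, which was listed with them as a related miRNA and lies outside the HOX clusters, took 0.433% of serum and 0.319% of milk, and passed 4-fold with miR-10b left out, so on the deposited scale 2 of 3 members were 4-fold or more higher in serum, beside 26.7% of all 60. MiR-10b was 160-fold above miR-100 in serum and 10.7-fold in milk, whereas miR-10a stood to miR-10b as 0.104 to 1 in serum and 0.141 to 1 in milk. In the opposite order to milk, miR-10b was 346-fold above miR-148 in serum and miR-148 was 2.43-fold above miR-10b in milk.

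MiR-196b, another miRNA of the HOX clusters, was listed in serum at 0.005% and absent from milk of this day. MiR-215, known from liver, kidney and gut and induced by p53, took 1.57% of serum at rank 6 and 0.115% of milk at rank 26, a 13.6-fold difference. MiR-25 took 1.16% of serum and 0.225% of milk, 5.17-fold. Both lay in serum above all 5 milk libraries, which reached 0.616% and 0.560%. MiR-221, known from endothelium and smooth muscle, took 0.143% of serum and 0.008% of milk, 17.9-fold. Its cluster partner miR-222a took 0.004% of serum and 0.002% of milk, under the minimum. MiR-125b, with 0.025% of serum and 0.002% of milk, was 12.5-fold higher in serum, between 9.80 and 17.0 with rounding. MiR-125b and miR-196b passed the minimum through serum alone and came within 4-fold with a pseudocount of 0.01.

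Of 8 listed miRNAs that mark blood cells, endothelium, liver or muscle, 7 reached the minimum and 5 were 4-fold or more higher in serum, beside 26.7% of all 60. Of these 5, miR-451, miR-126, miR-150 and miR-1 passed the minimum through serum alone and so had to differ, and only miR-122 reached it in both fluids. None of the 8 took more than 0.1% of either fluid. With a pseudocount of 0.01, miR-126, miR-150 and miR-1 came within 4-fold. MiR-451, the miRNA of red cells, took 0.041% of serum and 0.002% of milk, a ratio of 20.5 that rounding leaves between 16.2 and 27.7. Its cluster partner miR-144 was listed in serum alone at 0.001%. MiR-126, of endothelium and platelets, took 0.034% and 0.002%, and miR-150, of mature lymphocytes, took 0.011% of serum and was absent from milk. MiR-223, of neutrophils and other myeloid cells, took 0.030% of serum and 0.008% of milk, a 3.75-fold difference, and miR-142 was listed in neither fluid at this day. The red cell list summed to 0.042% of serum and 0.002% of milk, and the white cell list to 0.041% and 0.008%. At day 175 miR-451 took 0.054% of serum and 0.045% of milk, so the red cell contrast was far smaller on that day.

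MiR-122, the main miRNA of the liver, took 0.096% of serum and 0.008% of milk, 12.0-fold higher in serum, and serum of day 175 held 0.009%. Of the muscle miRNAs, miR-1 took 0.009% of serum and was absent from milk, and miR-133a took 0.008% of serum and 0.004% of milk. MiR-499 was listed in neither. The only member of the stromal list in a fluid was miR-143, at 1.31% of serum and 1.14% of milk. The parts that blood cells left in serum or milk play in these values were not tested.

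A group of miRNAs took similar shares of both fluids on the deposited scale. The miR-181c and miR-181a reads, counted in 1 entry and known for tuning lymphocyte receptor signalling, took 5.02% of milk and 3.14% of serum, at ranks 6 and 4. MiR-92 ranked 10 in milk and 5 in serum, and miR-143 ranked 11 and 8. MiR-16 took 0.085% and 0.081%, and its cluster partner miR-15a 0.014% and 0.011%. MiR-22 was 2.40-fold higher in milk and ranked 12 in milk and 11 in serum. MiR-21, which is raised in many growing tissues, took 0.214% of milk and 0.375% of serum, and was 5.49-fold higher in serum with miR-10b left out. In all 17 of the 60 miRNAs lay within 2-fold, and they took 9.59% of milk and 8.26% of serum. With miR-10b left out of the denominators, the directions of miR-22, miR-16, miR-15a and the miR-181 entry turned toward serum, as 12 of the 59 compared then did, and miR-92 and miR-143 were farther toward serum.

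Members of the same family or genomic cluster often differed in their milk to serum balance. Over 29 pairs of members in the same family list the median gap between their log2 differences was 2.42, or 1.87 over the 14 pairs outside let-7, and over 13 pairs in the same cluster it was 2.47. Over all 1770 pairs of the 60 miRNAs it was 3.05. The miR-10 list includes miR-100, and seeds were not checked against mature sequences. Without the pairs of miR-100 the family median was 2.29 over 27 pairs. Pairs share members and are not independent, and no test was made. The closest pairs were miR-15a with miR-16, at 0.25, miR-182 with miR-183, at 0.28, let-7a with let-7f, at 0.28, and let-7d with let-7f and miR-10a with miR-10b, both at 0.44.

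The 2 members of the miR-146 family, which restrain innate immune signalling, lay on opposite sides. MiR-146a took 0.082% of milk and 0.259% of serum, and miR-146b took 0.355% and 0.065%. MiR-146b was 4.33-fold above miR-146a in milk, and miR-146a 3.98-fold above miR-146b in serum. The serum order was the same at day 175, with 3.52-fold, whereas in milk of day 175 miR-146a was 1.10-fold above miR-146b. In the miR-148 family, miR-148 was 333-fold above miR-152 in milk and 25.0-fold in serum, and both were higher in milk on the deposited scale, and miR-152 was level between the fluids with miR-10b left out.

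Other family and cluster members lay within 4-fold on the deposited scale. MiR-181b took 0.177% of milk and 0.384% of serum, miR-27b 0.101% and 0.235%, and miR-23a 0.009% and 0.014%. MiR-130a took 0.096% of milk and 0.290% of serum, whereas miR-301 of the same family took 0.015% and 0.008%. With miR-10b left out, miR-301 turned toward serum and the other 4 passed 4-fold toward serum.

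The list of the miR-17 to miR-92 cluster holds 5 names, of which 4 were listed in a fluid. MiR-92 and miR-20 were within 2-fold, the latter with 0.006% of milk and 0.004% of serum and 2.09-fold higher in serum with miR-10b left out, while miR-19a and miR-19b were higher in serum. MiR-19b took 0.098% of serum and 0.013% of milk, 7.54-fold, and miR-19a took 0.052% and 0.004%, 13.0-fold. MiR-92 is also made from other clusters in mammals, and its reads are not separated by origin. At day 175 both miR-19 members were higher in milk, with 0.161% for miR-19b and 0.105% for miR-19a against 0.024% and 0.008% of serum.

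Entries found in 1 fluid alone at this day were low. Milk alone listed miR-29b, at 0. Serum alone listed 17 miRNAs, which together took 0.059% of serum and reached at most 0.011%, for miR-150. After it came miR-1 with 0.009%, miR-27a with 0.008%, and miR-29a and miR-196b with 0.005%. MiR-93 and miR-7 took 0.004%, and miR-32, miR-96, miR-129, miR-139 and miR-1546 took 0.002%. MiR-144, miR-187 and miR-210 took 0.001%, and miR-204 and miR-497 were listed at 0. Of the 17, 14 were listed in another milk library and 12 above 0 there, while 3 were absent from all 5 milk libraries, namely miR-1, miR-93 and miR-129. The serum of day 175 lacked 7 of the 17. Absence from milk at day 120 was thus in most cases not absence from milk.

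Among the 15 miRNAs 4-fold or more higher in milk at day 120, 13 were so at day 175, where 27 of the same 60 were. The other 2 were miR-191 and miR-146b. Among the 16 higher in serum, 6 were 4-fold or more higher in serum at day 175, where 8 of the 60 were. These 6 were miR-10a, miR-10b, miR-215, miR-125b, miR-126 and miR-150, of which the last 3 came within 4-fold at day 120 with a pseudocount of 0.01. The sign of the difference was the same on both days for 43 of the 60 miRNAs and opposite for 17.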

How the data were processed

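Small RNA from skim milk and serum was sequenced on an Illumina HiSeq by the authors, who trimmed adaptors, mapped reads to the opossum genome and annotated known miRNAs by miRanalyzer. The deposited values are percent of a library's annotated miRNA reads, with 3 decimals. Milk RNA was isolated with a mirVana kit and serum RNA with a miRNeasy Serum/Plasma kit according to the methods, while the sample records give the milk protocol for all. From the deposited percent values, ranks, ratios and log2 differences with a pseudocount of 0.001 were computed, with absent entries as 0. Ratios were given only where both values were above 0, and for some of those on low shares with the range that rounding allows. A difference of 4-fold was the limit, among miRNAs of at least 0.005% in the higher fluid. The days named are those of the labels. No column lacked a sample. With 1 library per fluid no test was made. The deposited values give no read numbers, and no counting interval was computed.

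Named were the 10 most abundant miRNAs of each fluid, the 8 largest and 8 smallest differences, members of the family, cluster and marker lists of at least 0.01%, and miRNAs listed in 1 fluid. Others were named where they complete a list. The members and lists were chosen with earlier results of these data known. Alternatives were other pseudocounts, minima and folds, and 4 other scalings. The calculation of the differences and the 4-fold limit was run on simulated shares with set changes and no noise between libraries. This checks the calculation alone and does not speak to the limits of 1 library per fluid. Python 3.11.15, numpy 2.4.6, pandas 2.3.3, scipy 1.17.1 and matplotlib 3.10.9 were used.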

Additional observations from a re-analysis of the deposited data

Results flagged for a closer look

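The milk to serum difference at day 175 was opposite in sign to that at day 120, and at least 4-fold away from it, for 12 miRNAs. With 1 library per fluid and day, the difference between the days was not tested. In 10 of the 12 the log2 difference was higher, more toward milk, at day 175. It was higher by 6.96 for miR-19a, by 5.79 for miR-101, by 5.52 for miR-19b, by 4.75 for miR-27a and by 4.64 for miR-21. It was higher by 3.38 for miR-182, by 3.33 for let-7i, by 3.17 for miR-29a, by 2.64 for miR-460 and by 2.54 for miR-143. For miR-191 it fell by 3.51 and for miR-146b it fell by 2.44. MiR-101 took 0.040% of milk and 0.059% of serum at day 120, and 0.681% and 0.017% at day 175. MiR-21 took 0.214% and 0.375% at day 120, and 3.04% and 0.212% at day 175.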

How the results depend on the processing

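The number of miRNAs 4-fold or more higher in milk, 15 on the deposited scale, stayed between 10 and 15 where the 4-fold limit was kept. It became 20 with a 2-fold limit and 11 with an 8-fold limit. The number higher in serum, 16, became 9 with a pseudocount of 0.01. There miR-1, miR-27a, miR-29a, miR-125b, miR-126, miR-150 and miR-196b came within 4-fold. With a minimum of 0.05% only 38 miRNAs were compared, of which 8 were higher in serum, and no call among these 38 was lost. The serum number was 28 of 59 with miR-10b left out of the denominators. It was 23 with the 2-fold limit and 12 with the 8-fold limit, and lay between 16 and 22 otherwise. With the pseudocount of 0.01 the median absolute difference became 1.20. Of the miRNAs compared, 12 changed sign with miR-10b left out, 8 with miR-10b and miR-191 left out and 3 on the centred log ratio. The Spearman correlation became 0.57 over the miRNAs above 0 in both fluids and 0.55 over those past the minimum. The Pearson correlation became 0.56 without miR-10b, 0.20 without miR-10b and miR-191 and 0.71 on the log2 scale. With listing taken as at least 0.001%, 2 miRNAs were in milk alone. With at least 0.005%, 6 were in milk alone and 11 in serum alone. The values give no read numbers, and shares near 0.001% are limited by the rounding.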
